A study of Mus musculus with 18 samples.

Results

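Genes of the Polycomb system and of the cell cycle were followed in mouse macrophages that lack EED. They are Eed, the deleted gene; Bmi1 and Cbx6, which encode subunits of Polycomb repressive complex PRC1; Cdkn2a, a cell-cycle inhibitor gene; and Ccnd2, which encodes cyclin D2. They were chosen because their symbols stand in the authors' deposited lists of genes that differed between EED KO and WT cells, so the fold changes below describe the genes that the lists picked out. The 5 genes are 5 of 816 listed symbols and account for 10 of the 1023 listed entries, 1 entry per gene and condition. Of 15 possible pairs of gene and condition, 5 have no entry. A missing entry means that the gene was not listed in that condition, not that it was unchanged.

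The study used bone marrow-derived macrophages, primary cells grown from mouse marrow in medium that contained L929-conditioned supernatant. EED KO cells came from Eed fl/fl; LysM-Cre+/- mice, in which Cre recombinase is expressed from the Lyz2 locus of myeloid cells, and WT cells came from littermate controls whose alleles at Eed and Lyz2 are not stated in the sources used here. There were 18 RNA-seq libraries in 6 groups of 3. EED KO and WT cells were each left unstimulated, primed with Salmonella lipopolysaccharide (LPS) at 100 ng/ml for 24 h (LPS primed), or primed in that way, rested for 48 h and challenged with LPS at 10 ng/ml (LPS tolerant). The age and sex of the mice, the length of the second exposure and whether a replicate is a separate mouse are not stated either. For WT LPS primed replicate 1 no label names a comparison, so its use in the LPS primed lists is uncertain. The deposited p-values rest on the spread between libraries, which may be partly technical. Values per library were not used here, so each gene is given by its deposited fold change, and neither depth nor the overlap of single libraries can be shown. All fold changes are EED KO over WT on a log2 scale; the base is not stated in the files and was taken as 2. The direction was read from Eed, which is in the lower list of every condition.

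Polycomb repressive complex 2 (PRC2) adds methyl groups to lysine 27 of histone H3. EED is the subunit that binds the finished mark and stimulates the EZH enzymes, so cells without EED lose PRC2 activity. PRC1 reads the mark through its CBX subunits and adds ubiquitin to histone H2A, and together the complexes hold developmental and cell-cycle genes silent. Cdkn2a is a classical target of both complexes, and BMI1 is best known as its repressor.

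Eed, the deleted gene, had large fold changes in every condition, with the direction read as lower in EED KO cells. For unstimulated cells the authors' deposited table gives -3.04 on the log2 scale, so that the EED KO level was 12.2% of the WT level. The approximate 95% interval ran from -3.55 to -2.53. In LPS primed cells the deposited value of the authors was -3.59 (8.32% of WT; interval -4.13 to -3.04), and in LPS tolerant cells it was -3.87 (6.85% of WT; interval -4.56 to -3.17). The adjusted p-values in the authors' deposited table were 1.44e-25, 1.46e-32 and 9.42e-24. The submitters' processing notes name edgeR but not which of its tests gave these values. Intervals are approximate because the standard error was taken from the fold change and the normal quantile of its p. By unadjusted p, Eed ranked 1 of 227 listed entries in unstimulated, 2 of 377 in LPS primed and 4 of 419 in LPS tolerant cells. By the size of the fold change it ranked 3 of 53, 3 of 76 and 2 of 75 lower entries. Since the direction of every comparison was read from Eed, its sign was fixed in advance and cannot check the labels.

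**Figure D1:**
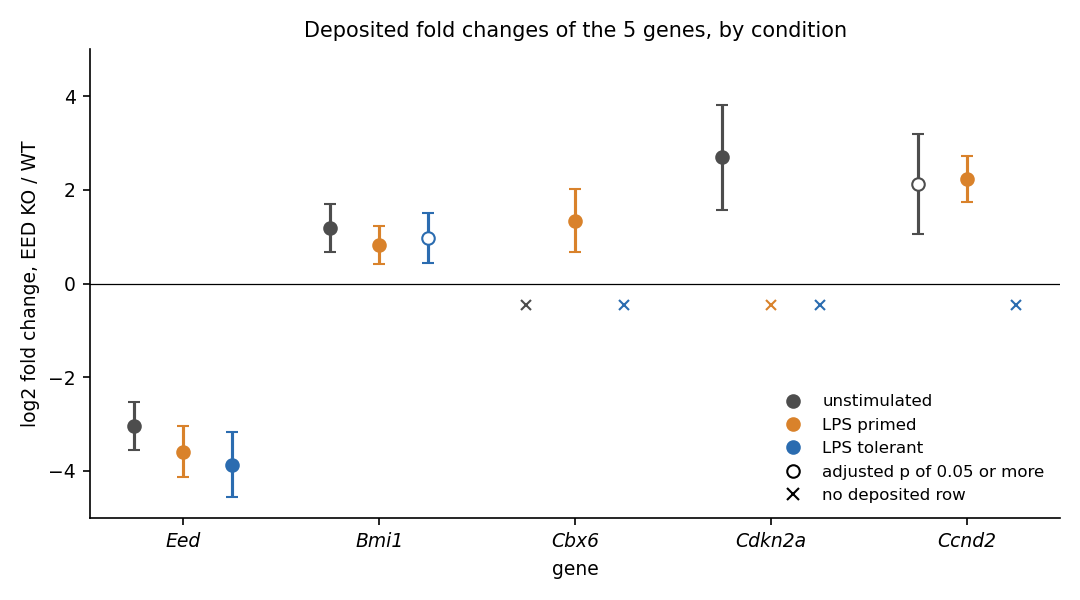
Log2 fold change (EED KO over WT, vertical axis) of the 5 genes in unstimulated, LPS primed and LPS tolerant macrophages, from the authors' deposited table; bars are approximate 95% intervals, open points have an adjusted p of 0.05 or more, and crosses mark conditions with no entry. Eed lies between -3.04 and -3.87, and the other genes lie above 0 wherever they have an entry.

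Between the 3 conditions the approximate intervals for the differences of Eed all included 0, which does not show that its values were equal. The value in LPS tolerant cells differed from that in unstimulated cells by -0.83 (approximate SE 0.44, interval -1.69 to 0.04), computed from the authors' deposited table. The step from unstimulated to LPS primed cells was -0.55 (interval -1.30 to 0.20). All 7 differences between conditions that could be formed for Eed, Bmi1 and Ccnd2 had intervals that include 0. With errors taken from a t quantile with 4 degrees of freedom, 2 of the 7 did. Those errors were as small as 4.72e-08 for Eed, which cannot be read as the spread of 3 libraries. GENCODE M21 lists 10 transcripts and 32 distinct exons for Eed on chromosome 7. The adjusted p-values imply at least 413233 tests in unstimulated, 189858 in primed and 338297 in tolerant cells, against 55450 genes in that annotation. An entry of any of the 5 genes may therefore cover less than a whole gene. Each percentage of WT refers to the entry. Which part of Eed lies between the loxP sites is not stated in the sources used here, and what the residual signal stands for was not tested. Lyz2, the site of the Cre insertion, had a lower entry in every condition, as Eed did. Its log2 level fell by 1.17, 1.19 and 0.93 in unstimulated, primed and tolerant cells in the authors' deposited table, and its part in the values of the other genes was not tested.

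Bmi1 was the other gene with an entry in all 3 conditions. It encodes a RING-finger subunit that pairs with RING1B in canonical PRC1 and supports self-renewal of blood stem cells. The authors' deposited table gives log2 fold changes of 1.19 in unstimulated, 0.83 in LPS primed and 0.97 in LPS tolerant cells. For these entries the EED KO level was thus 228%, 177% and 196% of the WT level. Bmi1 rose in unstimulated cells (interval 0.68 to 1.70, adjusted p = 0.0104) and in LPS primed cells (interval 0.43 to 1.23, adjusted p = 0.0219), as deposited by the authors. In LPS tolerant cells it did not pass (approximate SE 0.27, adjusted p = 0.114, from the authors' deposited table). The LPS tolerant value exceeded the LPS primed value by 0.14, with an interval from -0.53 to 0.81. Its largest gap between conditions, LPS primed minus unstimulated, was -0.36 (interval -1.01 to 0.28).

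Bmi1 was a middling entry by size. Its fold change exceeded 55.2%, 18.9% and 56.7% of the higher entries in unstimulated, primed and tolerant cells. The median higher entry in those lists stood at 1.11, 1.09 and 0.92. With 0.83 in LPS primed cells, Bmi1 lay close to the lower limit of the deposited lists, which start at 0.75.

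Cbx6 had an entry in LPS primed cells only. It encodes a chromodomain protein, one of the CBX subunits that can bring canonical PRC1 to methylated histone H3. Cbx6 rose by 1.34 (254% of WT, interval 0.68 to 2.01, adjusted p = 0.0296; fold change and p from the authors' deposited table). With that adjusted p it is the gene just inside the 0.05 threshold, and Bmi1 in LPS tolerant cells, at 0.114, is the one just outside. No value is at hand for Cbx6 in unstimulated or LPS tolerant cells, so whether it differed between conditions was not tested.

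The promoters of Bmi1 and Cbx6 are shown because both genes rose in LPS primed cells. The sequences are the 250 bases before the start site from RefSeq (build GRCm38.p6, an older build than the GRCm39 of the submitters' processing notes), written 5′ to 3′ in the direction of the gene, with every CpG dinucleotide in capitals. The Bmi1 window is chr2:18676768-18677017 on the plus strand and the Cbx6 window is chr15:79834334-79834583 on the minus strand.
Bmi1: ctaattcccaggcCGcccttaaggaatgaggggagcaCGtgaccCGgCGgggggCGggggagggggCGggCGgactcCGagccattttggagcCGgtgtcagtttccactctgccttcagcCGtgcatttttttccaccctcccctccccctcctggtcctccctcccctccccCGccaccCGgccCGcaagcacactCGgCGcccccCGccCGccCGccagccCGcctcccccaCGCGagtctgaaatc
Cbx6: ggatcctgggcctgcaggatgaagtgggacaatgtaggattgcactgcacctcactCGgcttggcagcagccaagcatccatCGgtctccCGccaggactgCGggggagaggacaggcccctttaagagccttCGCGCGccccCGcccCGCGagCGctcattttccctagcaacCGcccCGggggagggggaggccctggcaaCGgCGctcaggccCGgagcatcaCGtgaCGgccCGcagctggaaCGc

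The windows of Bmi1 and Cbx6 hold 21 and 20 CpG dinucleotides and have a GC content of 70.4% and 68.0%. The median of all 32851 promoters in the table is 6 CpG, and 16.3% and 17.9% of promoters hold at least as many as Bmi1 and Cbx6. Promoters of genes with a higher entry have a median of 10 CpG, and those of genes with a lower entry a median of 8. Both windows hold the letters CACGTG, an E-box that reads the same on both strands, at -215 to -210 of Bmi1 and at -26 to -21 of Cbx6, counted back from the start site. That motif is in 6.02% of all promoters in the table and in 5.43% of the promoters of genes with a higher entry. A match of these letters is a description and not a measured binding site.

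Of the cell-cycle genes, Cdkn2a had the larger fold change. It encodes p16INK4a, which inhibits CDK4 and CDK6, and p19ARF, which stabilises p53, from separate first exons. Cdkn2a rose by 2.69 in unstimulated cells (6.47-fold, interval 1.57 to 3.82, adjusted p = 0.00722; fold change and p from the authors' deposited table). It ranked 6 of 174 higher entries by size but 28 of 227 entries by unadjusted p. The interval, from 1.57 to 3.82, is the widest of the 10 entries. Cdkn2a has no entry in LPS primed or LPS tolerant cells, and whether its fold change differed there was not tested.

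GENCODE M21 lists 2 transcripts and 5 distinct exons for Cdkn2a on chromosome 4. The deposited entry does not say which product it counts. The windows before its separate starts are therefore both shown, chr4:89294620-89294869 for the upstream start, used by p19ARF, and chr4:89282193-89282442 for the downstream start, used by p16INK4a, both on the minus strand, from the same RefSeq table and with CpG in capitals.
Cdkn2a upstream start: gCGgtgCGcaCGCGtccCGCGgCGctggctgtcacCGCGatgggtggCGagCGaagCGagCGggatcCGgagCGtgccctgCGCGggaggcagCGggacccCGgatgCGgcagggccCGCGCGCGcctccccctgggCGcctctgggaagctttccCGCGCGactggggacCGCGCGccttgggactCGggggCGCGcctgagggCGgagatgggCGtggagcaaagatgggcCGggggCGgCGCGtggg
Cdkn2a downstream start: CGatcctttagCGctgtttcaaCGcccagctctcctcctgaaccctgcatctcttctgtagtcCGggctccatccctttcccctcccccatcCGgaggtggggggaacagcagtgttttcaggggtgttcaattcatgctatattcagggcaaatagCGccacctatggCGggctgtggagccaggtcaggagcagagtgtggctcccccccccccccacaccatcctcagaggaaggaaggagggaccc

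The windows differ in base composition. The upstream window holds 40 CpG at a GC content of 78.4%, and 1.31% of all promoters hold at least as many. The downstream window holds 7 CpG at 60.0% GC, a count that 46.3% of promoters reach. The ratio of observed to expected CpG is 1.08 upstream and 0.32 downstream, against a median of 0.37 over all promoters. The median is 0.53 over promoters of genes with a higher entry and 0.45 over those of genes with a lower entry. A search for E2F motifs, spelled TTTCCCGC, TTTGGCGC, TTTCGCGC or TTTGCCGC on either strand, found TTTCCCGC at -99 to -92 of the upstream window. One of these spellings is in 1.86% of all promoters. A search for the cyclic AMP response element, TGACGTCA, found no match in the windows of Eed, Bmi1, Cbx6 or Cdkn2a, and 1.55% of all promoters hold it. By symbol, 4 of the 5 genes matched the promoter table, all but Ccnd2.

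**Figure D2:**
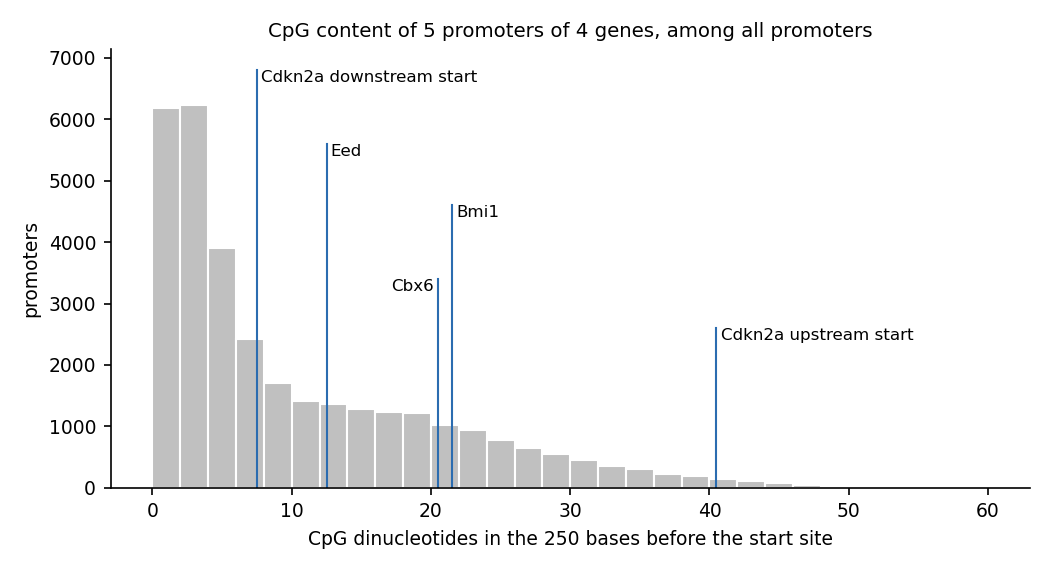
Number of CpG dinucleotides in the 250 bases before the start site (horizontal axis) of all 32851 promoters in the RefSeq table, as counts of promoters (vertical axis); blue lines mark 5 promoters of 4 genes. The upstream start of Cdkn2a lies far right at 40 CpG, Bmi1 and Cbx6 at 21 and 20, Eed at 12 and the downstream start of Cdkn2a at 7.

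Ccnd2 had entries in unstimulated and LPS primed cells. Cyclin D2 is a G1 cyclin that activates CDK4 and CDK6, the kinases that p16INK4a inhibits. The authors' deposited table places Ccnd2 at 2.12 on the log2 scale without stimulation (434% of WT, interval 1.05 to 3.19, adjusted p = 0.121), which did not pass. In LPS primed cells Ccnd2 rose by 2.22 (467% of WT, interval 1.73 to 2.72, adjusted p = 7.83e-15), again as deposited by the authors. The values differed by 0.10, with an interval from -1.07 to 1.28. The approximate SE was 0.55 in unstimulated and 0.25 in LPS primed cells.

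In unstimulated cells the inhibitor gene passed and the cyclin gene did not, with Cdkn2a at 2.69 and Ccnd2 at 2.12 in the authors' deposited table and intervals that overlap. In LPS tolerant cells neither has an entry.

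Counted by condition, 4 of the 5 genes were listed in unstimulated cells and 3 passed an adjusted p of 0.05, where 19.4% of all listed entries passed. In LPS primed cells 4 were listed and all 4 passed, against 33.2% of all entries. In LPS tolerant cells 2 were listed and 1, Eed, passed, against 23.6% of all entries. Eed is the deleted gene, so its pass in each condition is no independent result. Without Eed, 2, 3 and 0 genes passed in unstimulated, primed and tolerant cells. The genes were picked from these same lists, so the counts are a description. The listed entries are themselves selected, with unadjusted p-values no higher than 0.0498.

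**Figure D3:**
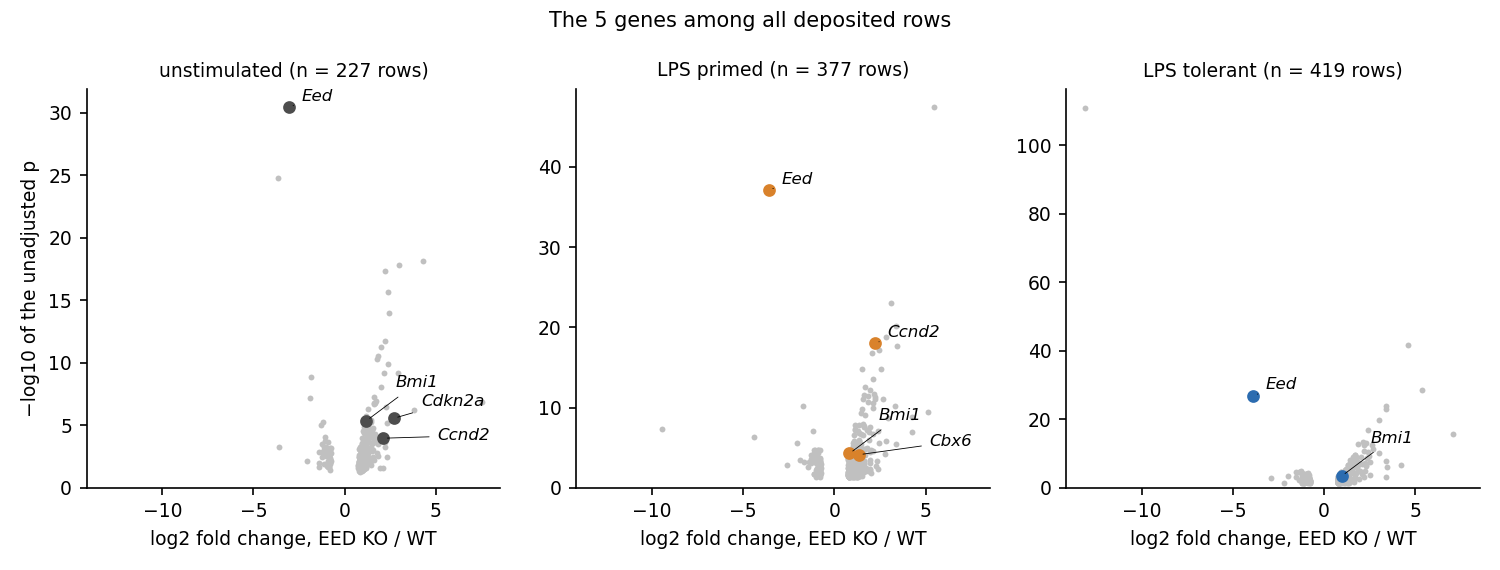
Log2 fold change (EED KO over WT, horizontal axis) against −log10 of the unadjusted p (vertical axis, a different range in each panel) of all deposited entries, with 1 panel per condition; grey points are all entries and coloured points the 5 genes. Eed lies far left but is not the lowest entry of any panel. Ccnd2 has a similar fold change in both panels that show it (2.12 and 2.22), and Bmi1 stays near the bulk of the higher entries.

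Other genes of the Polycomb system and the cell cycle were looked up in 9 gene lists. Of their 128 genes outside the 5, 4 had an entry in some condition (3.12%), and the 816 symbols with an entry are 1.47% of the 55450 genes in GENCODE M21, expressed or not. The counts below are therefore a description and show neither scarcity nor excess. Of all listed entries in unstimulated, primed and tolerant cells, 174 of 227, 301 of 377 and 344 of 419 were higher. The shares of all entries that passed were 19.4%, 33.2% and 23.6%, in that order. Of 13 PRC2 genes, Eed alone had an entry in each condition; no entry was found for Ezh1, Ezh2 or Suz12, which encode the other core subunits, or for the accessory genes Jarid2 and Mtf2. Of 22 PRC1 genes, 2 were listed in unstimulated cells, Bmi1 and Bcor, both higher, and 1 passed. Bcor, a corepressor of the variant PRC1 that contains KDM2B, stood at 0.86 (approximate SE 0.33, adjusted p = 1; fold change and p from the authors' deposited table). In LPS primed cells 2 of 22 were listed, Bmi1 and Cbx6, and both rose. Both are among the 5 chosen genes, so that count adds nothing to their entries above. In LPS tolerant cells Bmi1 was the 1 listed gene and did not pass. Genes of enzymes that oppose Polycomb had no entry in any condition, neither the 8 H3K27 demethylase and H2A deubiquitinase genes, Kdm6a and Kdm6b among them, nor the 10 COMPASS and Trithorax genes.

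Among cell-cycle genes, Cdkn2a was the 1 listed gene of 8 CDK inhibitors in unstimulated cells, and no inhibitor had an entry after LPS. Its neighbour Cdkn2b, which encodes p15INK4b, and Cdkn1a, the p53 target that encodes p21, had no entry. Of 14 cyclin and CDK genes, Ccnd2 was listed in unstimulated and LPS primed cells. A different D-type cyclin, Ccnd3, was listed in LPS tolerant cells, at 0.87 (approximate SE 0.35, adjusted p = 0.821; fold change and p from the authors' deposited table), and did not pass. None of 30 proliferation genes, such as Mki67, Pcna and Top2a, and none of 13 RB and E2F genes had an entry in any condition. In the list of 15 p53 and ARF pathway genes, 2 were listed in LPS primed cells, both higher, and 1 passed. Of all entries in LPS primed cells, 301 of 377 were higher and 33.2% passed. Sesn1, a stress-induced p53 target that restrains mTORC1, rose by 0.92 (approximate SE 0.23, adjusted p = 0.0193; fold change and p from the authors' deposited table). Phlda3, a p53 target that restrains AKT, stood at 0.81 (adjusted p = 0.354, both from the authors' deposited table). No gene of that list had an entry in unstimulated cells, which does not mean that its genes were unchanged there. A link between that list and Cdkn2a was not tested. 

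The genes nearest to a pattern were those listed in exactly the same conditions with the smallest value of the greatest difference in log2 fold change over those conditions. For Bmi1, 37 other genes qualified. The nearest was Afdn, which encodes the junction protein afadin, at 1.15, 0.82 and 0.82 in unstimulated, primed and tolerant cells in the authors' deposited table, never further than 0.15 from Bmi1. Rims3, a presynaptic active-zone gene, followed at a greatest difference of 0.21, and Jazf1, a zinc-finger gene, at 0.26. None of the 3 passed the adjusted threshold in unstimulated or LPS primed cells, and Rims3 alone passed in LPS tolerant cells (1.12, adjusted p = 0.0145, from the authors' deposited table).

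Eed had no close match, but of its 37 candidates only 6 were lower in each condition, against 30 higher in each. The gene nearest to Eed was Lyz1, a lysozyme gene next to Lyz2, which differed by up to 1.87. The predicted gene Gm10693 followed at 1.97 and Il7r, the interleukin-7 receptor gene, at 2.49. Lyz1 passed the adjusted threshold in unstimulated and LPS primed cells but not in LPS tolerant cells. Gm10693 passed in no condition, and Il7r passed in LPS primed and LPS tolerant cells only. For Ccnd2, 32 other genes were listed in unstimulated and LPS primed cells and not in LPS tolerant cells. Ldhb, a lactate dehydrogenase subunit gene, was nearest at 0.60, with 1.64 and 1.63 in the authors' deposited table, followed by Ndrg2 at 0.71 and Ctla2a at 0.76. Like Ccnd2, these 3 genes passed the adjusted threshold in LPS primed cells and missed it in unstimulated cells. Ldhb, for example, had adjusted p-values of 2.16e-05 in primed and 0.0640 in unstimulated cells in the authors' deposited table. Cdkn2a and Cbx6, with 1 entry each, have no pattern to match.

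**Figure D4:**
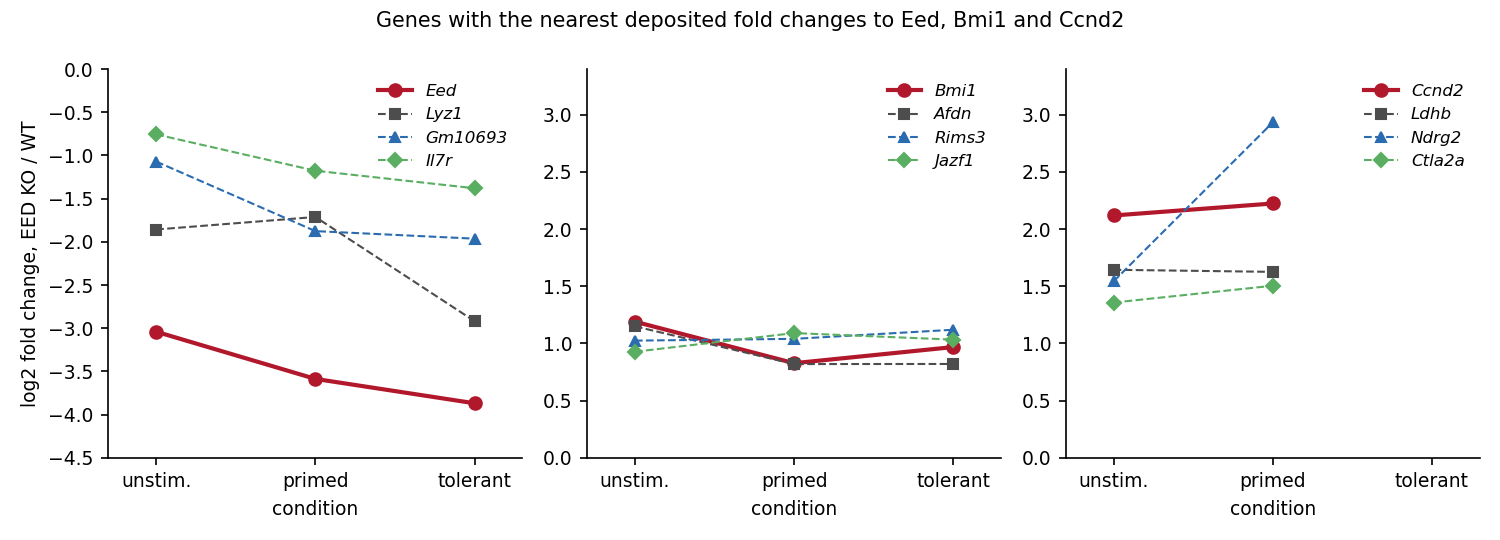
Log2 fold changes (EED KO over WT, vertical axis) in unstimulated, primed and tolerant cells of Eed, Bmi1 and Ccnd2 (red, solid) and the 3 nearest genes of each (dashed); lines join the points of 1 gene and imply no course in time. Afdn stays within 0.15 of Bmi1, whereas no gene comes closer to Eed than 1.87, and no gene of the Ccnd2 panel has an entry in LPS tolerant cells.

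Of 7 macrophage marker genes looked up, Lyz2 had an entry in each condition and Mertk in LPS primed cells, at 0.79 (adjusted p = 0.374, both from the authors' deposited table). Fold changes alone do not give the level of a marker, so the labelled cell type could not be checked further.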

How the data were processed

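The 18 libraries were stranded mRNA libraries read as pairs, per the labels' protocols. HISAT2, edgeR, GRCm39 and R 4.0.3 are named, with no order, in the submitters' processing notes; the annotation, filters and test are not stated in the sources used here. For each condition the authors deposited 1 sheet of higher and 1 of lower genes, with a log2 fold change (base assumed) and an unadjusted and an adjusted p-value per gene. No counts were used, so the depth is unknown and no model was fitted.

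Entries were matched by symbol and Ensembl identifier with pandas 2.3.3. The approximate SE is the size of the log2 fold change over the normal quantile that matches its p (SciPy 1.17.1); intervals are 95%. Differences between conditions treat libraries as independent and get no p. The same replicate numbers recur in each condition for EED KO and for WT. Whether they mark the same mice or cultures is not stated, so the intervals may ignore a pairing. The smallest number of tests is the largest ratio of adjusted to unadjusted p. A CpG count covers 250 bases before each start in the RefSeq table. The 5 genes were named in every condition, with every listed gene of 9 gene lists, Lyz2, and the 3 nearest genes per pattern. The genes and lists were chosen with earlier results of these data known.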

Additional observations from a re-analysis of the deposited data

How the results depend on the processing

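With an adjusted p under 0.01, 2 of the 5 genes passed in unstimulated cells, where 29 of 227 listed entries did. In LPS primed cells 2 of the 5 genes passed, where 86 of 377 entries did. Under that rule neither Bmi1 nor Cbx6 passed in any condition. With an unadjusted p under 0.05, 2 of the genes passed in LPS tolerant cells, and all 227, 377 and 419 entries passed in unstimulated, primed and tolerant cells. Under the same rule every listed gene of the pathway lists passes, since it is a condition of being listed. An adjusted p under 0.1, or an absolute log2 fold change of at least 1, moved no count of the 5 genes or of all entries by over 1.5 times. With the t quantile at 4 degrees of freedom in place of the normal quantile, the SE of the differences shrank, to 4.72e-08 for Eed between LPS primed and unstimulated cells. Intervals for 5 of 7 differences then left out 0: those of Eed at -0.55, -0.83 and -0.28 and those of Bmi1 at -0.36 and -0.22; with the normal quantile all 7 held 0. Errors so small cannot be read as the spread of 3 libraries, and the distribution behind the deposited p-values is not stated. Read as natural logs, the fold changes of Eed would be 20.9-fold, 36.1-fold and 47.9-fold lower in place of 8.23-fold, 12.0-fold and 14.6-fold. No replicate could be left out in turn without values per library. No paired analysis was possible because only the authors' comparisons, without values per library, were used.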
